A study of Sus scrofa with 20 samples.

Results

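The miRNAs described here are the products of the miR-23a/27a/24-2 cluster and of its paralog, the miR-23b/27b/24-1 cluster, in peripheral blood mononuclear cells of pigs. The members were the 7 rows of the human-reference count table named hsa-miR-23a-3p, hsa-miR-27a-3p, hsa-miR-27a-5p, hsa-miR-24-3p, hsa-miR-24-2-5p, hsa-miR-23b-3p and hsa-miR-27b-3p, out of 608 rows. As a check, 4 rows of the pig-reference table were read beside them, ssc-miR-23a, ssc-miR-27a, ssc-miR-24-3p and ssc-miR-24-1-5p, out of 284. Species prefixes are mostly left off from here on. The animals were female American Yorkshire pigs, 80 to 90 days old and weighing 36 to 41 kg. The 10 Control libraries came from blood taken before intracerebral hemorrhage (ICH), from animals not yet treated. The design text describes blood of the same animals before and 6 h after ICH. The 10 ICH libraries came from blood taken 6 h after ICH, a bleed modelled by injection of 2 to 4 ml of autologous blood within frontal white matter. The injection was made through a burr hole craniotomy, and no sham-operated group was analysed here, so the surgery, the elapsed time and the bleed itself cannot be told apart.

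Each of these clusters is transcribed as a single primary transcript, which is cut into hairpins. Every hairpin can release a 5p and a 3p arm, and for these hairpins the 3p arm is the arm usually loaded into the silencing complex. The miR-23a cluster is known as a target of PU.1, the transcription factor of the myeloid lineage, and it favours myeloid over B-cell development. miR-23 is known to repress glutaminase, miR-27 to act on lipid metabolism and adipocyte differentiation, and miR-24 to restrain the cell cycle. The a and b forms of miR-23-3p and of miR-27-3p are near-identical, so the split of reads between them is uncertain, and the miR-24-3p of both clusters is the same molecule.

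In the RefSeq gene table of Sscrofa11.1 the clusters lie on different chromosomes. MIR23A (chr2:65308117-65308186), MIR27A (chr2:65308294-65308375) and MIR24-1 (chr2:65308453-65308524) span 408 bases. They lie inside no other annotated gene, and the nearest protein-coding gene, ZSWIM4, is 2674 bases from MIR24-1. MIR24-2 (chr10:27079417-27079496), MIR27B (chr10:27079963-27080042) and MIR23B (chr10:27080197-27080276) span 860 bases and lie within the interval of C10H9orf3. The table gives gene intervals only, so whether these are intronic was not read from it. The numbering of miR-24 is crossed between the species: the counts named miR-24-2-5p against human miRNAs and miR-24-1-5p against pig miRNAs were identical in 16 of 20 libraries and never differed by more than 1 read. Both names are thus used here for the 5p arm of the hairpin beside miR-23a and miR-27a.

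The human-reference table held 919313 to 2177834 reads per library, and that of pig miRNAs held 896960 to 2103685. Abundant blood-cell miRNAs were present, with means of 14757 counts scaled to a library of 1000000 reads (CPM) for miR-142-5p, 9557 for miR-150-5p, a lymphocyte miRNA, and 1557 for miR-223-3p, a myeloid miRNA. The library sizes were first adjusted by the trimmed mean of M values (TMM). No 2 libraries of the same group agreed within sampling noise. Libraries with the same replicate number deviated together from their group means, and they were compared as pairs.

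The cluster was moderately abundant before and after ICH. The 7 members together took 1.46% to 2.46% of human-reference reads in Control libraries (median 1.98%) and 1.55% to 2.26% in ICH libraries (median 1.89%), and 4 of 10 pairs had a larger share after ICH. By mean share of a library, miR-24-3p ranked 20th of the 608 rows, miR-27a-3p 27th, miR-23a-3p 38th and miR-27b-3p 42nd. The other members were scarcer, with miR-23b-3p at rank 87, miR-24-2-5p at 105 and miR-27a-5p at 107. The ranks compare reads, which also depend on how well each miRNA is ligated and amplified.

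After ICH, 1 of the 7 members rose. That was miR-27a-5p, the minor arm of its hairpin, which increased 1.65-fold within pairs. The other arm of the same hairpin, miR-27a-3p, had a fold change of 1.03, and its neighbours miR-23a-3p and miR-24-3p had fold changes of 0.972 and 1.08. miR-23b-3p and miR-27b-3p, from the paralog cluster, had fold changes of 0.916 and 0.879 and were lower in 9 of 10 pairs each, but neither passed the test. Across all 245 miRNAs tested, 19.2% were called with an adjusted p under 0.05, 13.1% as higher and 6.12% as lower after ICH (edgeR quasi-likelihood test with the replicate number as a block, Benjamini-Hochberg adjustment), so 1 of 7 was not above the background. With library totals in place of TMM, 15 miRNAs were called as higher and 24 as lower, against 32 and 15. The median log2 fold change was 0.03 over the 245 miRNAs and 0.04 over the 7 members. Without the block 3.67% of the 245 were called (2.86% as higher and 0.816% as lower), and the same member was the only call among the 7. In these bulk samples a change in the number of cells of a type and a change in RNA per cell cannot be told apart. This holds for rises and for falls.

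**Figure D1:**
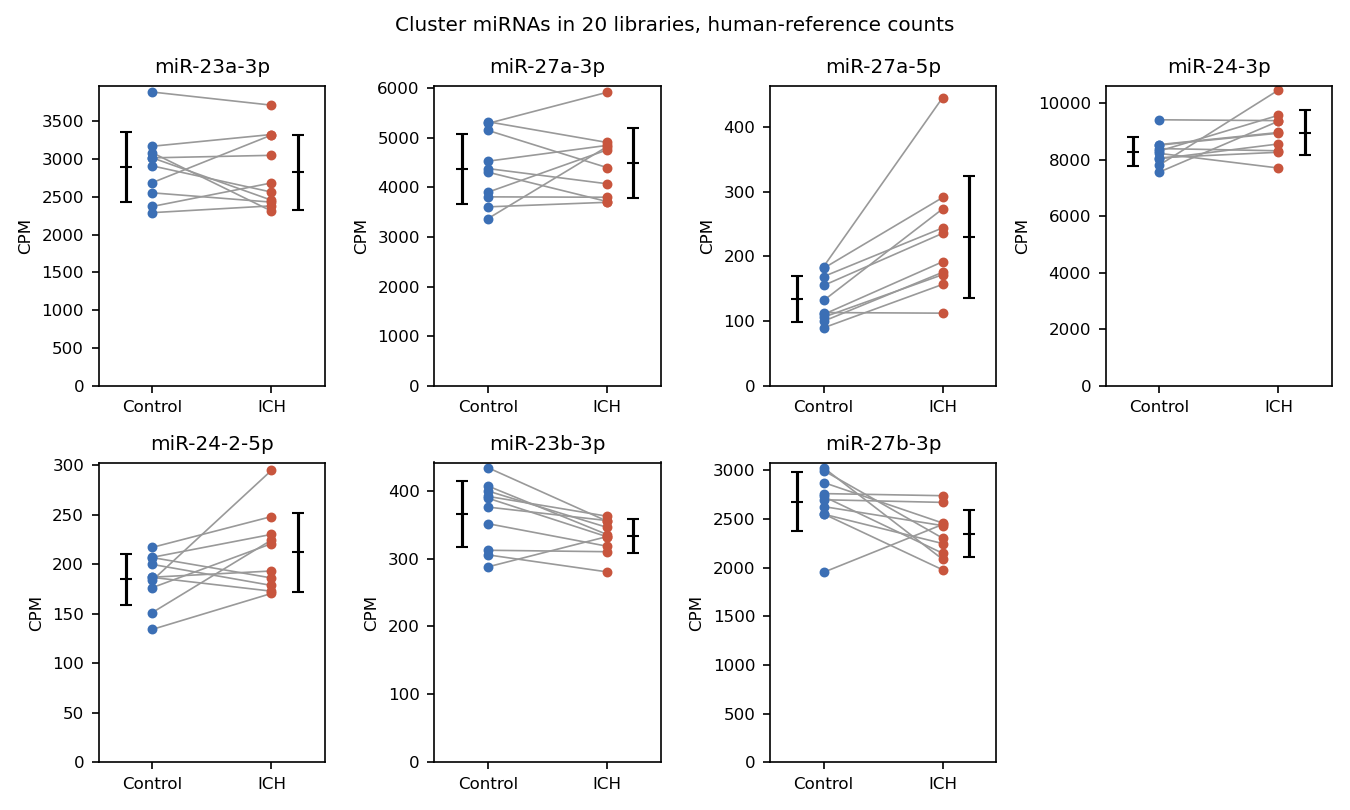
CPM (TMM-scaled, axis from 0) of each of the 7 members in the 10 Control and 10 ICH libraries; grey lines join libraries with the same replicate number, and the bars beside the points give the mean ± SD of each group. miR-27a-5p went from 134 ± 35.5 to 230 ± 93.8 CPM, and the groups of all 7 members overlap.

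miR-27a-5p ranged from 89.7 to 184 CPM in Control libraries, with a median of 123. In ICH libraries it ranged from 112 to 445 CPM, with a median of 214. The ranges overlapped, but 6 of the 10 ICH libraries lay above the highest Control library and 9 lay above the Control median. By edgeR with the block, the log2 fold change of miR-27a-5p was 0.73 ± 0.11 (SE, n = 10 pairs) with an adjusted p of 8.34e-05, and without the block it was 0.78 ± 0.20 with an adjusted p of 0.0263 (edgeR). It had the second smallest p and the fifth largest rise of the 245 miRNAs. These values rest on 119 to 235 reads per Control library and 166 to 399 per ICH library. The rise was seen in 9 of 10 pairs. In number 2 the change was 1.27 and in number 3 it was 1.04 on the log2 scale, whereas in number 5 it was -0.01. The remaining 7 numbers lay between 0.53 and 0.80. Leaving out each number in turn kept the log2 fold change between 0.61 and 0.78, with adjusted p up to 0.00219.

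miR-27a-3p, the dominant arm, ranged from 3369 to 5319 CPM in Control (median 4340) and from 3697 to 5912 CPM in ICH (median 4574). Of the 10 pairs, 5 were higher after ICH, and edgeR gave it a log2 fold change of 0.04 ± 0.087 (SE), with 0.819 as adjusted p. That value changed sign under library totals and other settings. In replicate number 8 it increased by 0.52 on the log2 scale, and in number 7 it fell by 0.23.

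The arms of miR-27a were then compared with each other within each library, which needs no scaling between libraries. miR-27a-5p made up 1.94% to 5.12% of the reads of both arms in Control libraries (median 2.84%) and 2.69% to 7.005% in ICH libraries (median 4.71%). All 10 pairs had a larger 5p share after ICH. The log2 ratio of 5p to 3p had a Control mean of -5.04 ± 0.50 and an ICH mean of -4.36 ± 0.49 (SD, 10 libraries each). Within pairs the log2 ratio rose by 0.68 ± 0.14 (SE), with an adjusted p of 0.00721 by limma. This was the largest change and the only call among 57 hairpins with both arms tested, 1.75% of them. Comparing the groups without the pairs gave the same change with an adjusted p of 0.215, so the call depends on the pairing. Leaving out each number in turn gave changes of 0.61 to 0.74 and adjusted p of 0.00162 to 0.0318.

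**Figure D2:**
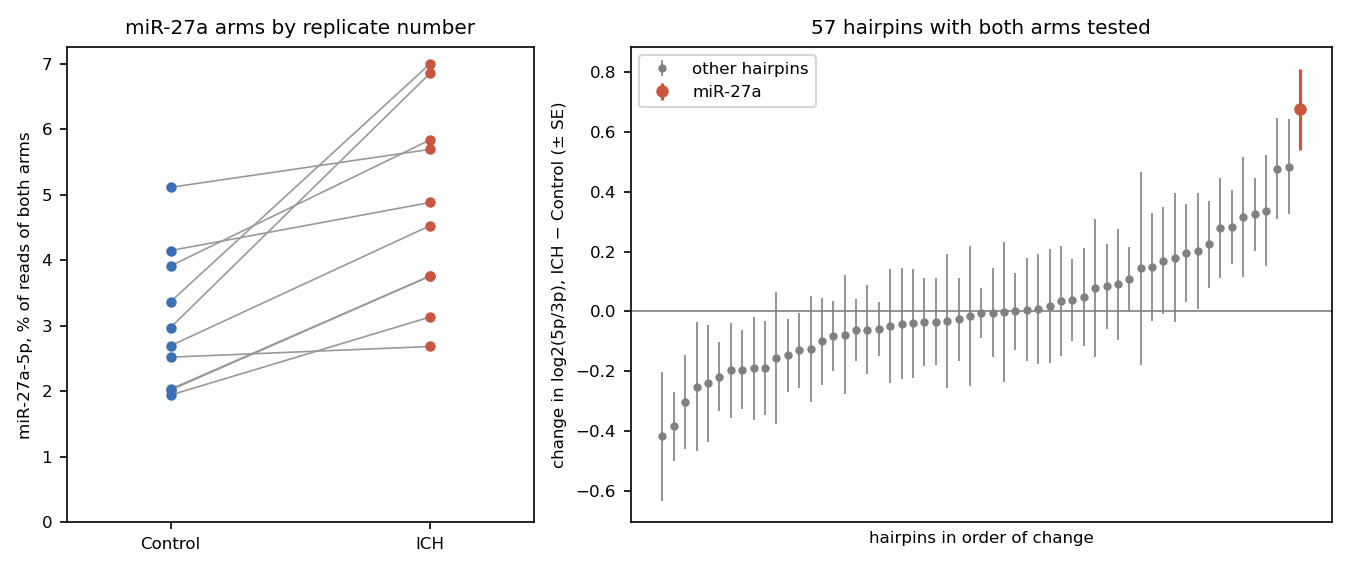
Left, the share of miR-27a-5p in the reads of both miR-27a arms (percent, axis from 0) in each library, with lines joining libraries of the same replicate number. Right, the change in the log2 ratio of the 5p to the 3p arm (ICH minus Control, ± SE) for 57 hairpins in order of change; miR-27a, in red, is the highest at 0.68.

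The level of the 5p arm of the neighbouring hairpin did not pass the test, and its ratio to the 3p arm was not tested. miR-24-2-5p ranged from 134 to 217 CPM in Control (median 187) and from 171 to 295 CPM in ICH (median 207). The groups overlapped, with 5 ICH libraries above the highest Control library. The change by edgeR was 0.19 ± 0.10 on the log2 scale (SE), with an adjusted p of 0.22, higher in 7 of 10 pairs. The largest increases were in number 1, at 0.68, and number 7, at 0.56 on the log2 scale. Set against miR-24-3p, to which both clusters contribute, it made up 1.55% to 2.51% of the summed reads in Control and 1.81% to 2.99% in ICH, and that share was higher in 6 of 10 pairs.

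miR-24-3p was the most abundant member. Relative to its mean it had the smallest spread of the 7 in Control, with a coefficient of variation of 6.05%. It ranged from 7566 to 9417 CPM in Control (median 8270) and from 7710 to 10467 CPM in ICH (median 8954). The ICH values of 2 libraries lay above all Control values. The change by edgeR was 0.11 ± 0.08 on the log2 scale (SE), with an adjusted p of 0.393, with 7 of 10 pairs higher. Under library totals it was near 0, at -0.00012.

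miR-23a-3p ranged from 2290 to 3884 CPM in Control (median 2961) and from 2311 to 3711 CPM in ICH (median 2622). No ICH library lay above the highest Control library, and 5 of 10 pairs were higher. The change by edgeR was -0.04 ± 0.087 on the log2 scale (SE), with an adjusted p of 0.82. In number 1 it fell by 0.41, and in number 6 it increased by 0.30 on the log2 scale.

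**Figure D3:**
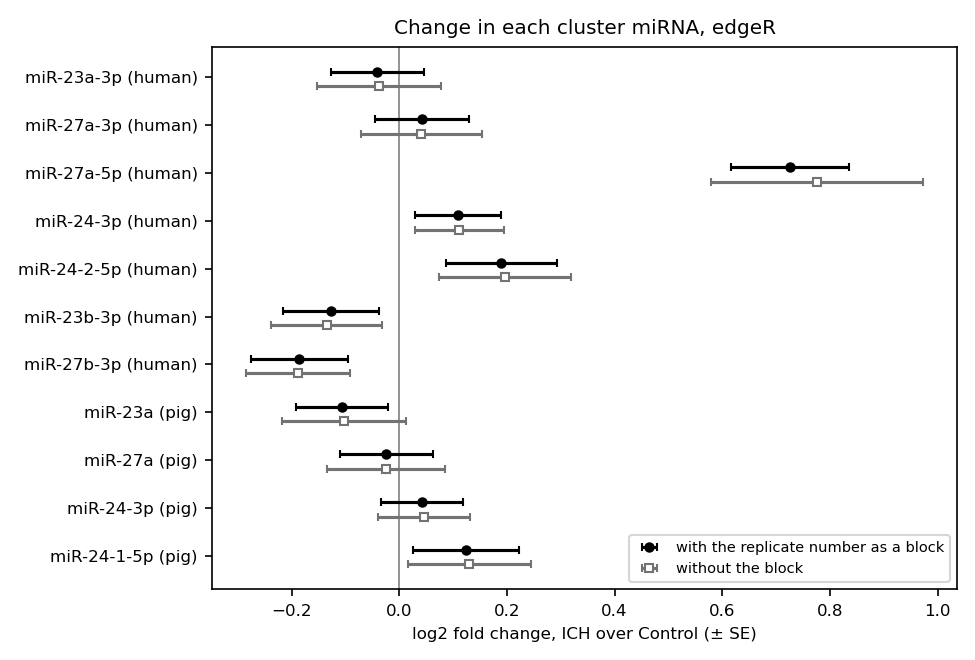
Log2 fold change of ICH over Control (± SE, edgeR) for the 7 human-reference members and the 4 pig-reference check rows, with (black) and without (grey) the replicate number as a block. miR-27a-5p stands at 0.73, and the other points lie between -0.19 and 0.20.

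Both miRNAs that come from the paralog cluster alone, miR-27b-3p and miR-23b-3p, had lower values after ICH in 9 of 10 pairs, and neither passed the test. miR-27b-3p ranged from 1952 to 3026 CPM in Control (median 2714) and from 1978 to 2739 CPM in ICH (median 2367). Of the ICH libraries, 1 lay above the Control median. The change by edgeR was -0.19 ± 0.09 on the log2 scale (SE), with an adjusted p of 0.161. It passed with library totals (-0.29, adjusted p = 0.0403) and without replicate number 4 (-0.24, adjusted p = 0.0452) or 8 (-0.29, adjusted p = 0.0233), so the call lay near the threshold. Library totals moved the median log2 fold change of all miRNAs tested by -0.11.

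miR-23b-3p ranged from 288 to 434 CPM in Control (median 382) and from 280 to 362 CPM in ICH (median 334). None of the ICH libraries lay above the Control median. The change by edgeR was -0.13 ± 0.089 on the log2 scale (SE), with an adjusted p of 0.36. With the a and b counts summed, miR-23-3p stood at -0.09 ± 0.082 and miR-27-3p at -0.08 ± 0.084 on the log2 scale, with adjusted p of 0.4662 and 0.564 in the same fit.

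Whether paralogs and neighbours moved apart was tested on 4 log2 ratios within libraries. miR-27a-3p over miR-27b-3p had log2 means of 0.70 ± 0.21 (Control) and 0.93 ± 0.27 (ICH; SD, 10 libraries each). After ICH this ratio rose 1.17-fold, with 8 of 10 pairs higher (exact two-sided sign-flip permutation test within pairs, p = 0.0117, adjusted p = 0.0469 over the 4 ratios). In share of reads, miR-27b-3p made up 34.1% to 45.6% of the 2 forms in Control and 26.6% to 41.3% in ICH. The adjusted p was 0.185 when the pairs were ignored (permutation test with 100000 resamples). It was 0.0312 to 0.0938 when each number was left out, past the threshold in 2 of the 10 cases. The ratio of miR-23a-3p to miR-23b-3p changed by 0.08 ± 0.06 (SE; adjusted p = 0.258, exact permutation test) with 5 of 10 pairs higher. For the neighbours, miR-27a-3p over miR-23a-3p changed by 0.08 ± 0.11 (adjusted p = 0.484, exact permutation test), and miR-24-3p over miR-23a-3p by 0.15 ± 0.093 (adjusted p = 0.258, exact permutation test). For 10 pairs the smallest p this test can give is 0.00195.

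**Figure D4:**
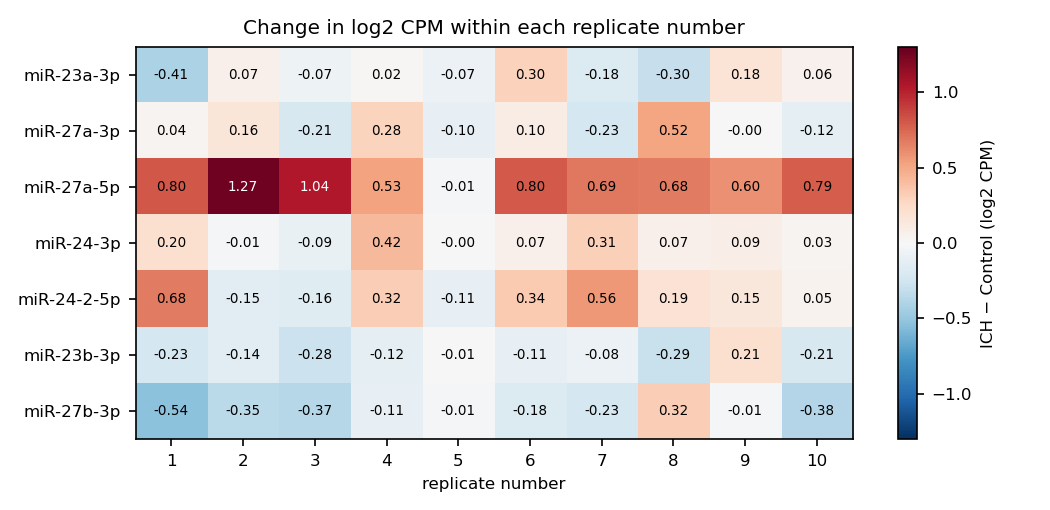
Change in log2 CPM (ICH minus Control) of each member in each of the 10 replicate numbers, red for higher and blue for lower after ICH. The miR-27a-5p row is above 0.5 in 9 of the 10 numbers, and the miR-23b-3p and miR-27b-3p rows are below 0 in 9 each.

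Whether members varied together between animals was read from the changes within replicate numbers. Over the 21 pairs of members, Pearson's r of the changes within the 10 numbers ran from -0.50 to 0.76, with a median of 0.03. By Pearson's r 0 of the 21 passed after adjustment over them, 1 passed by Spearman's rho, and 1 passed by r with library totals in place of TMM. The highest was between miR-24-3p and miR-24-2-5p (Pearson's r = 0.76, permutation p = 0.0107, adjusted p = 0.225; Spearman's rho = 0.87, permutation p = 0.00217, adjusted p = 0.0456). Without numbers 4 and 7, the farthest from the median of miR-24-3p, r was 0.93. The arms of miR-27a had r = 0.04 (permutation p = 0.906, adjusted p = 0.965) and rho = -0.09 (permutation p = 0.811, adjusted p = 0.893), and r = 0.31 without numbers 4 and 8. CPM are shares of a library, so changes of different miRNAs are tied to each other through the total.

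Among 223 other tested miRNAs that averaged 10 CPM or more, those whose changes within numbers were most like those of miR-27a-5p were miR-21-5p (r = 0.73, rho = 0.50), miR-9-5p (r = 0.68, rho = 0.44) and miR-362-5p (r = 0.57, rho = 0.71). The permutation p for r was 0.0245, 0.0237 and 0.0884 and for rho 0.145, 0.201 and 0.0266, and 0 of 223 passed after adjustment (adjusted p = 0.946 for r and 0.995 for rho in all 3). Without the 2 farthest numbers r was 0.36, 0.50 and 0.56. For miR-23a-3p they were miR-18a-5p (r = 0.82, rho = 0.76), miR-93-5p (r = 0.78, rho = 0.73) and miR-1291 (r = 0.76, rho = 0.67). Their permutation p for r was 0.00422, 0.00621 and 0.012 and for rho 0.0151, 0.0202 and 0.0406 (adjusted p = 0.37, 0.37 and 0.515 for r and 0.605 for rho). Without the 2 farthest numbers r was 0.61, 0.62 and 0.37.

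Against pig miRNAs, where 21.8% of 179 miRNAs were called with the block (11.7% as higher and 10.1% as lower), 0 of the 4 check rows passed. All 4 had an unadjusted p above 0.05, and DESeq2 and limma voom also called 0 of them. The log2 fold changes were -0.11 ± 0.085 for miR-23a, -0.02 ± 0.086 for miR-27a, 0.04 ± 0.076 for miR-24-3p and 0.12 ± 0.098 for miR-24-1-5p (SE; adjusted p = 0.386, 0.839, 0.721 and 0.379, edgeR with the block). These are largely the same reads, and the counts of miR-27a differed from those of human miR-27a-3p by at most 4 reads per library. With TMM, miR-23a stood at -0.04 against human and -0.11 against pig miRNAs, and with library totals at -0.15 in both. The lower TMM values in the pig-reference counts are thus no separate evidence of a fall. The pig rows of the paralog cluster, miR-23b and miR-27b-3p, had log2 fold changes of -0.19 ± 0.081 and -0.25 ± 0.091 (adjusted p = 0.088 and 0.0547). Each was lower in 9 of 10 pairs. No miR-27a-5p row was among the 179 pig-reference miRNAs tested, so the check rows do not bear on its rise.

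The remaining arms of these hairpins were close to the limit of detection. In all 10 Control libraries together there were 56 reads of miR-23a-5p, 72 of miR-23b-5p, 77 of miR-27b-5p and 58 of miR-24-1-5p (human names). In the 10 ICH libraries there were 61, 75, 57 and 48. miR-23c, a further form of miR-23, had 4 and 5 reads. All 5 were under the minimum counts of the main test. With no filter on low counts, where all 608 rows were tested, 0 of the 5 passed (edgeR with the block, adjusted p of 0.723 to 0.91, and 0 at an unadjusted p under 0.05). There the 5p arm of miR-27b had a log2 fold change of -0.45 ± 0.33 (SE, adjusted p = 0.723, edgeR).

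Markers of blood cell types moved in the same comparison, and their part in the rise of miR-27a-5p was not tested. The counts called in each list stand beside 13.1% of all 245 miRNAs called as higher and 6.12% as lower. A summed level mainly follows the most abundant rows of its list, so it need not follow the rows called. Of the myeloid list, 2 of 4 tested rows rose (median 0.42), miR-223-5p by 0.82 and miR-223-3p by 0.63 on the log2 scale (adjusted p = 6.75e-05 and 0.00856, edgeR with the block). Both are arms of the same hairpin, and the other tested rows, the arms of miR-22, were not called. The summed level of that list was 4335 to 7165 CPM in Control and 5888 to 7916 CPM in ICH, higher in 9 of 10 pairs. Of the lymphocyte list, 5 of 16 rows fell and 2 rose (median -0.19), with miR-29a-3p at -0.42 and miR-181d-5p at 0.50. All 7 of these calls were lost without the block (edgeR adjusted p = 0.0511 for miR-29a-3p and 0.0773 for miR-181d-5p). Its summed level was 27671 to 37964 CPM in Control and 22088 to 35217 CPM in ICH, higher in 1 of 10 pairs. Of the erythroid list, 2 of 4 rose (miR-144-3p and miR-486-5p, median 0.57), with sums of 111 to 813 CPM in Control and 429 to 1334 CPM in ICH, higher in 10 of 10 pairs. Both calls were lost without the block (edgeR adjusted p = 0.388 for miR-144-3p and 0.136 for miR-486-5p). Of the platelet list, 1 of 4 rose (miR-126-3p, median 0.33; miR-126-5p was at 0.38 and did not pass), with sums of 36843 to 54383 CPM in Control and 39733 to 53636 CPM in ICH, higher in 7 of 10 pairs. Both arms of miR-142, found across blood cells, missed the threshold (-0.25 for 5p and -0.20 for 3p), with sums of 15489 to 27936 CPM in Control and 10872 to 20841 CPM in ICH, higher in 2 of 10 pairs. Of the epithelial list, 1 of 2 fell and 1 rose, miR-203a-3p at -0.45 and miR-200c-3p at 0.43, with sums of 1879 to 3124 CPM in Control and 1295 to 2111 CPM in ICH, higher in 0 of 10 pairs. Without the block the calls of miR-223-5p, miR-223-3p, miR-126-3p and miR-203a-3p held, and that of miR-200c-3p was lost (edgeR adjusted p = 0.233).

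The same lists gave partly different results against pig miRNAs, where 11.7% of 179 miRNAs were called as higher and 10.1% as lower. The reads are largely the same, but after TMM the median log2 fold change was -0.04 there and 0.03 with human miRNAs. miR-142-5p passed there as lower, at -0.32 on the log2 scale (adjusted p = 0.0264, edgeR with the block), while miR-142-3p did not, and their sum was higher in 1 of 10 pairs. The platelet sum was higher in 3 of 10 pairs, against 7 with human miRNAs, although 1 of 4 rows, miR-126-3p, rose in both. In the pig-reference counts that sum was mostly miR-191, with a mean of 46429 CPM against 381 for miR-126-3p. miR-191 was not called there (adjusted p = 0.719, edgeR with the block). The erythroid sum was higher in 7 of 10 pairs, against 10, and 1 of 3 rows rose, miR-486. Of the lymphocyte rows 6 of 10 fell and 1 rose, with the sum higher in 1 of 10 pairs. Of the myeloid rows, which here were those of miR-22 and miR-424, 0 of 2 tested passed (unadjusted p = 0.0579 and 0.458, edgeR with the block), and the sum was higher in 8 of 10 pairs. The myeloid sum was mostly miR-22-3p, with a mean of 4418 CPM. Without the block edgeR called 0 of the 179 pig-reference miRNAs, with 35 at an unadjusted p under 0.05.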

How the data were processed

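Total RNA of PBMCs, separated on a density gradient, served at 500 ng as input for NEBNext small RNA libraries, per the labels' protocols. Groups and replicate numbers came from the sample titles. The authors deposited whole-number read counts per miRNA against human and pig miRNAs, a filtered version of each, and RPM, which on checking were the deposited filtered counts scaled to 1000000 reads (within 0.005). Bowtie, FastQC and bcl2fastq are named in the submitters' processing notes, as are GRCh38, hg38 and Sscrofa11.1. How reads were counted, split between similar miRNAs and filtered is not given in the sources used here.

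Unfiltered counts were fitted with edgeR 4.0.16 under R 4.3.3 (TMM scaling, filterByExpr, robust quasi-likelihood test), with the replicate number as a block and Benjamini-Hochberg adjustment over all miRNAs tested (245 human-reference, 179 pig-reference; threshold 0.05). SE were derived from the fold change and F statistic. Arm ratios used log2(CPM + 1) from library totals and limma 3.58.1. Other ratios used the same values with an exact sign-flip permutation test, and correlations a permutation test with 100000 resamples. Alternatives were no block, library totals, DESeq2 1.42.0, limma voom, no filter, the filtered tables, RPM, other pseudocounts, summed paralogs and leaving out each number. Log2 CPM of single libraries used a prior count of 2.

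The replicate numbers were taken to pair the libraries: the design text describes blood of the same animals, and same-numbered libraries deviated together (correlations 0.146 to 0.672, all 10 over 0.1; median -0.071 between different numbers). In 7 of the 10 numbers the 2 libraries were each other's best match. Same-numbered libraries also carry consecutive sequencing sample numbers, so a shared animal and shared handling cannot be told apart by these correlations. The p-values of the blocked fits judge the mean change against its spread between numbers, with the estimate of that spread partly shared across miRNAs. Reads carry no molecular identifiers and so do not each stand for a separate molecule. The scripts were tested on simulated data. There edgeR with the block recovered 85% (human) and 88% (pig) of miRNAs changed 1.5-fold. Without the block it recovered 49% and 54%. Of the calls with the block, 3.67% (human) and 6.09% (pig) were false. The arm-ratio test recovered 98% of hairpins changed 2-fold, and 3.64% of its calls were false.

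Named miRNAs were the members, the check rows, the other arms of these hairpins, the 3 miRNAs most like miR-27a-5p and like miR-23a-3p, and the 2 with the smallest p in each marker list. miR-191 was added as the most abundant platelet row of the pig-reference counts. The marker lists, matched by name without species and arm, were myeloid (miR-223, miR-22, miR-424), lymphocyte (miR-150, miR-342, and the miR-181, miR-29 and miR-31 rows), erythroid (miR-451, miR-144, miR-486), platelet (miR-126, miR-191, miR-199), miR-142 alone, and epithelial (the miR-200 family, miR-205, miR-203a). The members and lists were chosen with earlier results of these data known. Matching by shared seed was not done, and mature sequences were not used here.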

Additional observations from a re-analysis of the deposited data

Results flagged for a closer look

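In 32 groups of 10 libraries (members, check rows and ratios), 2 held a library that Dixon's test at the 95% level marked as lying apart from the rest; about 1 group in 20 is marked by chance. miR-27b-3p was low in Control replicate 8, at 10.93 log2 CPM against 11.32 to 11.56 in the other Control libraries. The log2 ratio of miR-27a-3p to miR-23a-3p was low in ICH replicate 3, at 0.00087 against 0.50 to 1.04 in the other ICH libraries. Without replicate 8 the log2 fold change of miR-27b-3p was -0.29 (adjusted p = 0.0233, edgeR with the block).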

How the results depend on the processing

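miR-27a-5p kept its rise and its call in all 19 alternatives run, with log2 fold changes of 0.61 to 0.78. The number of the 7 members called was 1, and it was 2 with library totals, with limma on log2(RPM + 0.5) and without replicate 4 or 8 (range 1 to 2 over the numbers left out); the added call was miR-27b-3p. Without the replicate block, with the pairing ignored, the arm ratio of miR-27a was 0.68 (adjusted p = 0.215) and the ratio of miR-27a-3p to miR-27b-3p was 0.23 (adjusted p = 0.185), both no longer past the threshold; the block changed no other call among the members. The latter ratio was 0.19 to 0.26 with each number left out. In the correlations, 1 of 21 passed with library totals in place of 0. Calls over all miRNAs tested went without the block from 47 to 9 (human) and from 39 to 0 (pig, with 35 at an unadjusted p under 0.05), and without replicate 4 to 61 and 59. With library totals the human-reference split was 15 rising and 24 falling, against 32 and 15. The cause of these differences was not tested.

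Values close to 0 changed sign, none of them past the threshold before or after. miR-27a-3p was at -0.065 with library totals and with limma on RPM with either pseudocount, at -0.014 with no filter on low counts, and at -0.054 to 0.075 with each number left out. miR-24-3p was at -0.00012 with library totals. In the pig-reference counts miR-24-3p was at -0.0046 with library totals and -0.0045 with limma on RPM with either pseudocount. miR-27a there was at 0.020 with no filter, at 0.012 in the filtered counts and at -0.070 to 0.016 with each number left out. The depth limits miR-27a-5p and miR-24-2-5p, at 119 to 418 reads per library, more than the other members.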
